A study of Mus musculus with 4 samples.

Results

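Cytosolic ribosomal protein genes were followed in 32D-EpoR cells, mouse myeloid progenitor cells with an added gene for the erythropoietin receptor, cultured without or with erythropoietin (Epo). They were chosen by name: array gene names that begin with Rpl or Rps and a digit, or that read Rplp0, Rplp1 or Rplp2, leaving out the kinases whose names begin with Rps6k. The array carried 131 such names on 222 probes. Of these, 123 names with 210 probes stood well above background on each array of 1 group or both and were tested, among 17569 of 36413 names and 23735 of 55681 probes in all. The 123 comprise 43 large subunit genes, 29 small subunit genes, 3 stalk genes, 5 paralogue names, 42 pseudogene names and Rps19bp1, which encodes a protein that binds RPS19 and is not itself a ribosomal protein. The 75 subunit and stalk genes are called subunit genes here, and all 75 on the array were kept.

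Both groups were the same line, washed free of the WEHI-conditioned medium that sustains it, and 1 of them then received Epo at 10 U/ml. The sources used here do not say how long Epo was present, what drives the added receptor or whether the line is a single clone. Each group had 2 arrays, from 2 independent experiments on cells of different passages, and all 4 lay on 1 slide in 1 scan. In whole cultures, fewer cells of a type and less RNA per cell cannot be told apart.

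The ribosome is built from ribosomal RNA and one copy of nearly every ribosomal protein, so the genes of both subunits are commonly transcribed at high and similar levels. In mammals their messenger RNAs begin with a cytidine followed by a run of pyrimidines, the terminal oligopyrimidine (TOP) tract, which ties their translation to mTOR signalling and to the binding protein LARP1. Growth factor signals through this route change how much of these messages is translated, often more than how much message is present.

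The start of the transcript is shown for some genes named in the results, because the TOP tract lies there. The choice differs from the one first planned, which held Rplp0 and Rpl32, not shown here. The windows run from 15 bases before the annotated start to 15 bases from it onward, 5′ to 3′ on the gene's strand, and come from RefSeq on the build GRCm38.p6. Capitals mark the uninterrupted run of C and T from the start base, where that base is C and at least 4 pyrimidines follow.
Rpl35, chr2:39005117-39005146, minus strand: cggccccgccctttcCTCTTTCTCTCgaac
Rpl14, chr9:120571502-120571531, plus strand: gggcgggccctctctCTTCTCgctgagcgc
Rpl38, chr11:114668565-114668594, plus strand: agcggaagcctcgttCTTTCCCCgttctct
Rps6, chr4:86857353-86857382, minus strand: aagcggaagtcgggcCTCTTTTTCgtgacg
Rplp2, chr7:141447636-141447665, plus strand: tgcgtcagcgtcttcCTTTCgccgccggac
Rpl7l1, chr17:46782642-46782671, minus strand: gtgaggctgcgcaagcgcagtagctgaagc
Rps19bp1, chr15:80264292-80264321, minus strand: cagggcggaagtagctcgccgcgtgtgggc
The first 5 windows hold such a tract, of 11, 6, 8, 9 and 5 bases in the order shown, and the windows of Rpl7l1 and Rps19bp1 do not. By this rule 13 of the 55 subunit genes looked up held one, so the 5 shown are not typical of them.

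Of the 75 subunit genes, 55 had an entry in the promoter table. At least 1 annotated start of 13 of these 55 (23.6%) began with C and 4 further pyrimidines, against 3.01% of all 27025 genes in the table. The 7-base string CCGGAAG, the core read by ETS-family factors, was searched on both strands from 250 bases before to 50 bases after the start. It lay in 23 of the 55 (41.8%) and in 9.93% of all genes. A match describes these letters only. The 13 genes with the tract at an annotated start had a median log2 change with Epo of -0.40, and the 42 with no match there had -0.34. Whether messages of the 42 carry a tract from another start was not tested. The 23 with CCGGAAG had -0.32, and the 32 without it had -0.35.

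The 75th percentile of the processed signal was 224 and 250 intensity units without Epo and 347 and 454 with it. No spot was saturated. Signals below are log2 values after each array was brought to the same 75th percentile, so a change is relative to that percentile. Of the markers listed for myeloid progenitors, 10 of 11 on the array were measured, Ctsg and Csf2rb among them, while Kit, a defining one, was not well above background. Epo-treated and untreated libraries also differed in a few markers, some of them of other cells. Called lower were 1 of 10 measured myeloid progenitor markers (Cebpa), 2 of 5 measured erythroid markers and both measured lymphoid markers. Over all genes 14.2% were called lower and 13.1% higher. Without scaling 0 of the erythroid and lymphoid markers were called lower, against 2.08% of all genes. The erythroid median then turned from -0.49 to 0.26, while the lymphoid median stayed below 0, at -0.23. With cyclic loess 2 erythroid and 2 lymphoid markers were called lower, against 12.7% of all genes. The defining erythroid genes Hbb-b1 and Alas2 were not measured. The scaled signals of the measured markers of a list were summed before the log2 was taken. For the erythroid list this ran from 13.61 to 13.80 without Epo and from 13.11 to 13.12 with Epo. Most of that sum was Gata1, at 13.31 and 13.48 without Epo and 12.73 and 12.71 with it. For the lymphoid list the log2 sum ran from 10.22 to 10.44 without Epo and from 9.36 to 9.46 with it. Of 3 measured macrophage markers of 7 on the array, Emr1 was higher and Csf1r lower, with the defining Marco and C1qa not measured. Their log2 sum ran from 11.80 to 11.83 without Epo and from 12.12 to 12.22 with it, over the 3 measured. The 1 measured stromal marker of 7, Pdgfrb, was lower, at 7.78 and 7.81 without Epo and 5.25 and 5.44 with it. Without scaling Pdgfrb was also called lower, with a change of -1.70. The part of these markers in the results below was not tested.

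The comparison asked how these genes differed between cells with and without Epo. Relative to the 75th percentile, 74 of the 75 subunit genes were lower with Epo, by a median of 0.34 on the log2 scale within a range of changes from -0.67 to 0.085, a direction that turned for the median without scaling, with spike-in scaling and with quantile normalization. In limma, with Benjamini-Hochberg adjustment over all 17569 genes, 12 of the 75 passed the threshold of 0.05 as lower, 0 passed as higher and 63 passed in neither direction. At an unadjusted limma p under 0.05, in either direction, there were 46 of the 75, and 7507 of all 17569 genes. Over all genes tested, 2502 (14.2%) were called lower and 2302 (13.1%) higher, and the median change was -0.062. The 12 of 75 are thus close to the background share. Both arrays with Epo lay below both arrays without it for 72 of the 75, and for 38.4% of all genes. Rpl21 was the 1 gene with both Epo arrays above, an order that 30.4% of all genes had. Rpl5 and Rps21 overlapped between groups.

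Over all 123 tested names, 18 were called lower and 2 higher, and the median change was -0.33. With the replicate number as a block the calls among them rose to 49 lower, of which 17 were among the 18, and stayed at 2 higher, while 23.2% of all genes were then called lower and 19.9% higher. Of the 75 subunit genes, 34 were then called lower. The number called rested on each of the arrays. It was 5 without no Epo replicate 1, and 1 without no Epo replicate 2, Epo replicate 1 or Epo replicate 2 in turn, and the corresponding numbers of subunit genes were 5, 1, 0 and 0. The share of all genes called lower fell in these fits too, to 11.1%, 9.18%, 6.70% and 7.03% in the same order. With every probe fitted on its own, 18 of the 210 probes were called lower and 4 higher, against 12.9% and 13.0% of all 23735 probes.

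Rps14, Rpl14 and Rps20 were among the subunit genes with the largest falls past the threshold, whose direction turned without scaling and with spike-in scaling. Rps14, a protein of the small subunit's platform, read 18.44 and 18.77 without Epo and 17.88 and 17.97 with it. The difference was -0.67 ± 0.16 (SE, n = 2 arrays a group), with a limma adjusted p of 0.0401. Rpl14, a large subunit protein whose start window is printed above, read 18.52 and 18.71 without Epo and 17.97 and 17.95 with it. Both Epo arrays lay below both others by more than the spread within either group, and its difference was -0.65 ± 0.13 (SE), with a limma adjusted p of 0.0261. Rps20 read 18.58 and 18.38 without Epo and 17.87 and 17.90 with it, a difference of -0.59 ± 0.13 (SE) with a limma adjusted p of 0.0343. In these genes too the groups did not overlap, an order that 38.4% of all genes had and that genes picked by the threshold tend to have.

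Further subunit genes called lower, 8 of them named after their values were seen, were Rpl9, Rpl35, Rpl41, Rpl37a, Rpl38, Rps12, Rps16 and Rps9. Their changes ran from -0.58 (Rpl9) to -0.45 (Rps9). Rpl35, which has the longest tract among the printed windows, read 18.61 and 18.56 without Epo and 18.06 and 17.97 with it, and its limma adjusted p was 0.0281. All 12 genes called lower were lower in both replicate numbers and have a mean signal above 16. Some differences as large missed the threshold. Rps27a, which is made as a fusion with ubiquitin, read 18.36 and 18.76 without Epo and 17.95 and 17.90 with it, a difference of -0.63 ± 0.17 (SE) with a limma adjusted p of 0.0574. Its arrays without Epo lay further apart than those with it. Without scaling, the 12 differences ran from 0.07 (Rps14) to 0.30 (Rps9), and limma called 0 of the 12.

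**Figure D1:**
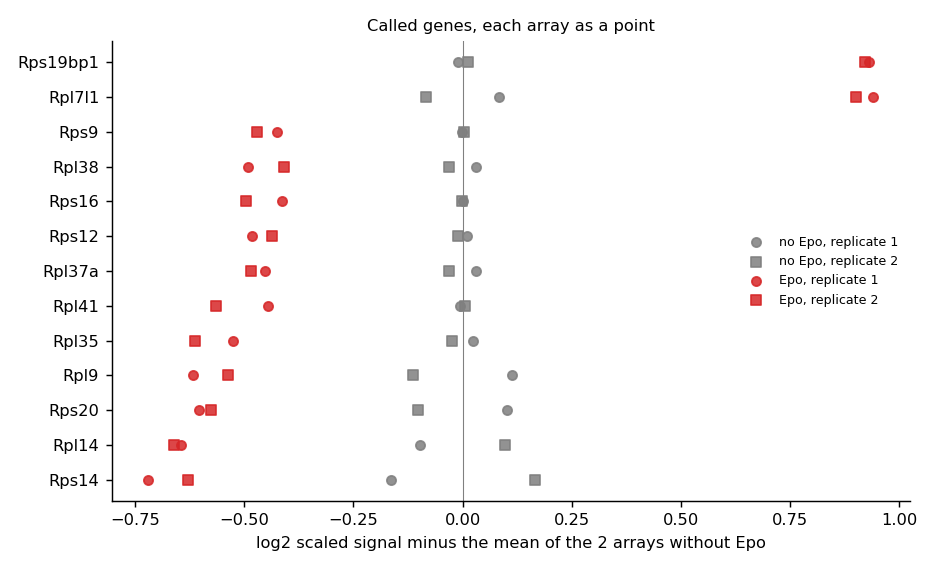
Each point is 1 array of a gene called different in limma, with the log2 scaled signal minus the mean of both arrays without Epo on the horizontal axis; grey points are without Epo, red with Epo, circles replicate 1 and squares replicate 2. The 11 subunit genes drawn lie left of 0 with Epo and Rpl7l1 and Rps19bp1 lie right of it, with no overlap between groups. Over all genes 38.4% had both Epo arrays below both others and 30.4% had both above. The side of the 11 turns without scaling and with spike-in scaling.

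The acidic stalk proteins recruit the elongation factors, and none of the 3 passed the threshold. Rplp0, the anchor of the stalk and a common reference gene, read 18.36 and 18.34 without Epo and 17.98 and 18.05 with it. Its difference was -0.34 ± 0.11 (SE) with a limma adjusted p of 0.0894, and of 0.0479 with the replicate block. Rplp1 and Rplp2 differed by -0.46 ± 0.13 and -0.42 ± 0.14 (SE), with limma adjusted p of 0.0611 and 0.0848. With the replicate block both passed, at 0.0384 and 0.0299. For all 3 both Epo arrays lay below both others, an order that 38.4% of all genes had.

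Rps6, the small subunit protein that S6 kinases phosphorylate, read 17.91 and 17.90 without Epo and 17.62 and 17.66 with it. The difference of -0.27 ± 0.11 (SE) did not pass, with a limma adjusted p of 0.140. Rpl5 and Rpl11 bind 5S ribosomal RNA and, when outside the ribosome, the p53 regulator MDM2. Rpl5 read 16.25 and 15.77 without Epo and 16.02 and 15.75 with it, a difference of -0.13 ± 0.21 (SE) in groups that overlapped. Rpl11 read 18.72 and 18.36 without Epo and 18.05 and 18.14 with it, and its difference of -0.45 ± 0.16 (SE) had a limma adjusted p of 0.110. Rps19, mutated in Diamond-Blackfan anaemia, differed by -0.18 ± 0.13 (SE), with a limma adjusted p of 0.370.

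Rpl13a and Rpl32 are widely used as reference genes. Rpl13a read 16.75 and 16.87 without Epo and 16.53 and 16.44 with it, and Rpl32 read 17.24 and 17.21 without Epo and 16.85 and 16.78 with it. Their differences of -0.33 ± 0.12 and -0.41 ± 0.11 (SE) did not pass, with limma adjusted p of 0.109 and 0.0575. Rpl32 passed with the replicate block, at 0.0318. Rpl21, the subunit gene represented by the dimmest probe, read 11.15 and 11.08 without Epo and 11.25 and 11.15 with it. Its difference of 0.085 ± 0.11 (SE) was the only one above 0 among the 75.

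The size of the change went with the brightness of the probe. Of the 75 subunit genes, 70 had a mean signal above 16, and of all 123 tested names 77.2% did, against 3.61% of all genes. Across the 75 genes, which share libraries and are not independent, the change correlated with the mean signal at a Pearson r of -0.71 and a Spearman rho of -0.74. Across the 540 other genes above 16 the values were -0.52 and -0.58. In matched signal classes above 16 the medians of ribosomal names and other genes lay close together. Between 16 and 17 the medians were -0.25 for 23 ribosomal names and -0.25 for 279 other genes. Between 17 and 17.5 they were -0.30 and -0.33, between 17.5 and 18 they were -0.41 and -0.41, and above 18 they were -0.47 for 19 ribosomal names and -0.49 for 42 other genes. In dimmer classes, which held few ribosomal names, theirs were the lower except between 8 and 10. There the 1 name, Rpl7l1, had 0.92 and the 3473 other genes a median of -0.022. The medians were -0.23 for 16 names and -0.12 for 385 other genes between 15 and 16, -0.16 for 5 names and 0.043 for 2499 between 12 and 14, and -0.23 for 3 names and 0.040 for 3673 between 10 and 12. Over all genes above 16, the 95 ribosomal names had a median 0.043 lower than the 540 others. The difference was not tested.

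**Figure D2:**
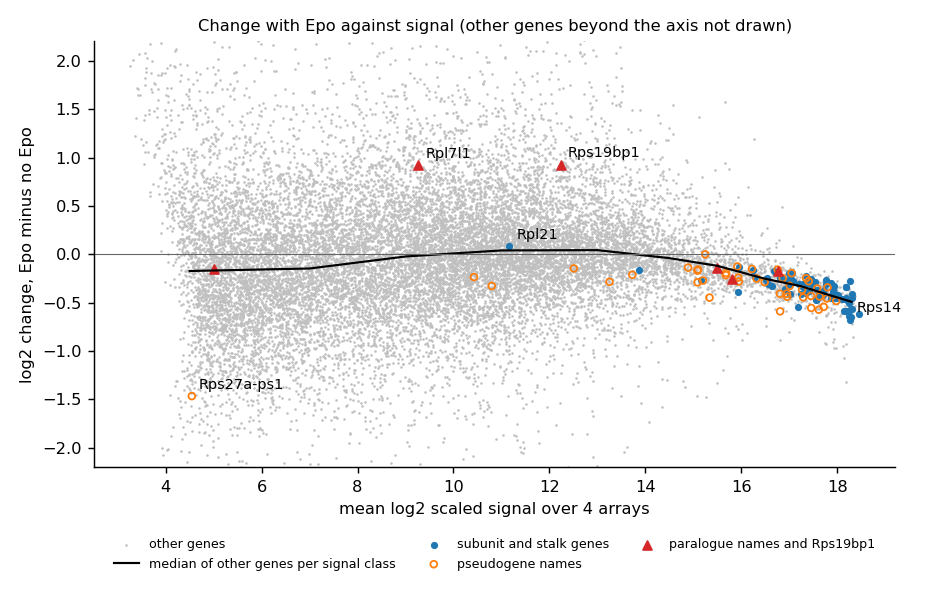
The vertical axis is the log2 change, Epo minus no Epo, after 75th percentile scaling, and the horizontal axis the mean log2 scaled signal over the 4 arrays, with 1 point a gene. Subunit genes (blue) crowd at the bright end along the line of medians of other genes, from -0.25 between 16 and 17 to -0.49 above 18, and Rpl7l1 and Rps19bp1 stand apart at 0.92 and 0.93; the side of 0 on which the bright genes lie turns without scaling and with spike-in scaling.

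Before scaling, the same pattern appeared as a smaller rise at the bright end. The median unscaled change of other genes was 0.79 between 12 and 14, 0.49 between 16 and 17, and 0.26 above 18. For the ribosomal names it was 0.49 between 16 and 17 and 0.28 above 18. Control probes for the E1A spike-in transcripts, each with 35 spots an array, were bright enough on 8 of 10 probes. Their unscaled difference between groups was between -0.39 and -0.29 for the 6 dimmer ones, -0.20 for 1 with a mean signal of 17.33, and 0.055 for the brightest, at 18.52. Differences between groups in the spike-ins were thus nearer 0 at the bright end, as in the cell's own genes, although from the other side. The sources used here do not say how much spike-in each sample received. What part a flattening of bright signals had in the ribosomal protein values was not tested.

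**Figure D3:**
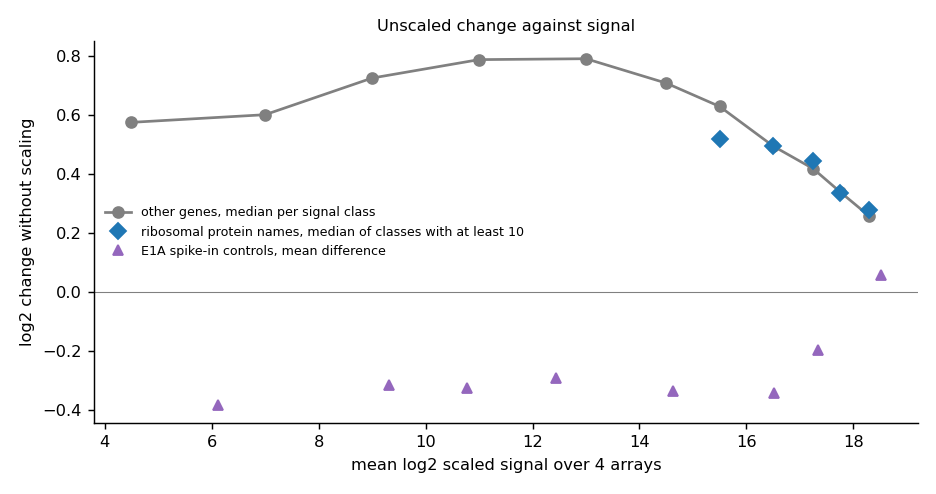
The vertical axis is the log2 change, Epo minus no Epo, with no scaling between arrays, and the horizontal axis the mean log2 scaled signal. Medians of other genes per signal class (grey) fall from 0.79 to 0.26 from the class at 12 to 14 to the one above 18, ribosomal names (blue, classes with at least 10) follow them, and E1A controls (purple) lie between -0.39 and 0.055.

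The direction of the whole group depended on how the arrays were scaled. With the percentile taken over detected probes alone, the median change of the 123 names was -0.45 beside -0.19 for all genes, and 56 names were called lower, against 20.8% of all genes. Without scaling the median was 0.42 beside 0.68, 0 names were called lower and 4 were called higher, Rpl21, Rpl7a-ps8, Rpl7l1 and Rps19bp1, against 46.9% of all genes called higher. With the spike-ins as reference the median was 0.69 beside 0.95, and 96 names were called higher, against 76.2% of all genes. In each of these the ribosomal names lay 0.26 below the median of all genes, since a single value an array shifts every gene alike.

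Cyclic loess and quantile normalization adjust arrays by signal level, which by construction also takes out a change shared by most bright genes. With cyclic loess the median of the names was -0.069 beside -0.035 for all genes, and 0 of the 123 were called lower by limma and 2 higher, against 12.7% and 12.9% of all genes. With quantile normalization the median was 0.0042 beside -0.044, again with 0 called lower and 2 higher, against 13.1% and 12.6%. At an unadjusted p under 0.05 there were 5 names with loess and 6 with quantile normalization. The matching counts over all genes were not taken. The gap between ribosomal and other genes above 16 was -0.0085 with loess and 0.032 with quantile normalization, so it had no steady sign.

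**Figure D4:**
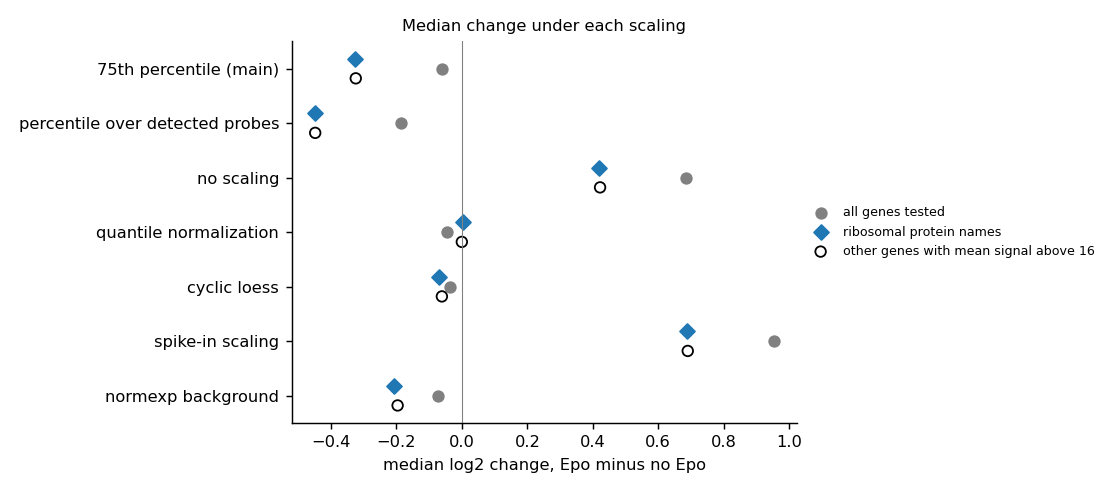
The horizontal axis is the median log2 change, Epo minus no Epo, and each line of points is 1 way to scale the arrays, with normexp a different background correction. Ribosomal names (blue) and other genes with a mean signal above 16 (open circles) lie together under every setting drawn, from -0.45 to 0.69, and on either side of the median of all genes (grey).

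Probes of different brightness for the same gene gave different changes. For 54 names several probes were kept, 141 in all. In 17 subunit genes reported here the brightest and dimmest kept probes were at least 3 log2 units apart. The brightest had a median change of -0.32 and the dimmest of -0.12, and the dimmest was the less negative in 15 of the 17. Among the 15 is Rps15a, whose dim probe was well above background on 2 of the 4 arrays. That probe passed the filter through 1 group alone, which favours a difference, so its rise of 1.12 carries no weight here. Rpl14 gave -0.65 on its bright probe and -0.12 on a probe 5.34 units dimmer. Rps25 gave -0.55 and -0.17 in the same way. In 14 of the 17 the dimmer probe lay further along the transcript. Which of brightness and position goes with the difference cannot be told apart here.

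**Figure D5:**
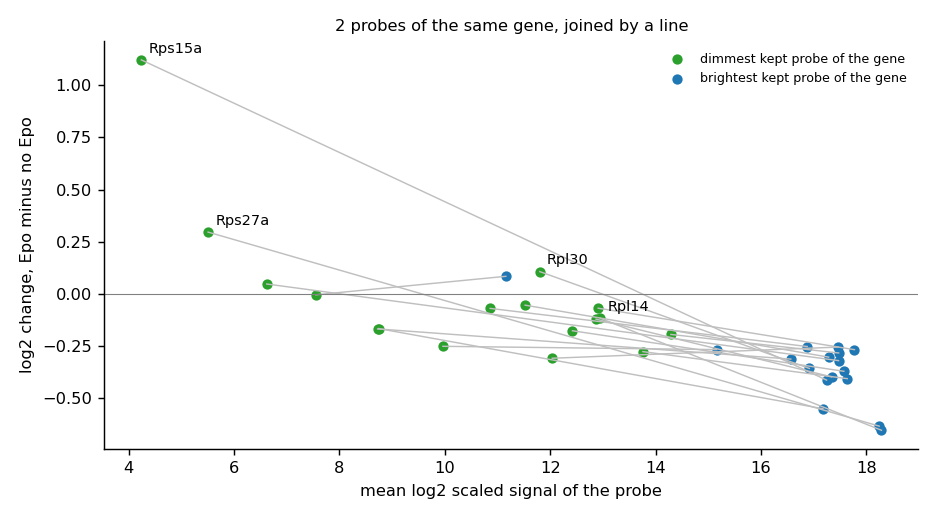
Each line joins the dimmest (green) and brightest (blue) kept probe of 1 of 17 subunit genes, with the mean log2 scaled signal of the probe on the horizontal axis and its log2 change, Epo minus no Epo, on the vertical axis. The highest green point, Rps15a at 1.12, passed the filter through 1 group alone. In 15 of the 17 the dim probe is less negative; the dim probes have a median of -0.12 and the bright ones -0.32 after 75th percentile scaling, and without scaling every value is 0.75 higher.

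Paralogue names belong to relatives of a core gene. Of 8 on the array 5 were measured, while Rpl10l, Rpl39l and Rps4y2 were not well above background on enough arrays. Rpl7l1, related to Rpl7 and known for a role in ribosome assembly, rose with Epo. It read 8.89 and 8.72 without Epo and 9.75 and 9.71 with it. The limma adjusted p of this 1.89-fold rise, 0.92 ± 0.12 (SE) on the log2 scale, was 0.0118, while Rpl7 differed by -0.38 ± 0.11 (SE), with a limma adjusted p of 0.0685. The rise of Rpl7l1 passed in 12 of 14 alternatives, and the adjusted p was 0.146 with dim probes kept and 0.0511 without Epo replicate 1.

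The other 4 measured paralogues did not pass the threshold. Rpl22l1 differed by -0.25 ± 0.15 (SE), and Rpl22, its partner, by -0.25 ± 0.12. Rps27l, a p53-responsive relative of Rps27, differed by -0.17 ± 0.12 (SE) where Rps27 had -0.45 ± 0.17. Rpl36al had -0.14 ± 0.15 (SE) where Rpl36a had -0.29 ± 0.12. Rpl3l, a muscle form of Rpl3, was dim at signals from 4.90 to 5.12 and differed by -0.15 ± 0.11 (SE), where Rpl3 had -0.34 ± 0.12. The differences between partners were not tested.

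Rps19bp1, also known as active regulator of SIRT1, was the other name called higher. It read 11.76 and 11.78 without Epo and 12.70 and 12.69 with it, with almost no spread within a group. Epo raised it by 0.93 ± 0.11 (SE) on the log2 scale, 1.90-fold (limma adjusted p 0.00954). The call held in 13 of 14 alternatives and was lost at an adjusted p of 0.135 with dim probes kept. Neither name called higher is thus a core ribosomal protein, and neither start window printed above holds a TOP tract. By the same rule 42 of 55 subunit genes had no tract at their annotated start either, so its absence does not set these 2 names apart.

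The 42 measured pseudogene names had a median change of -0.29 within a range from -1.47 to about 0, with 6 called lower and 0 higher, against 14.2% and 13.1% of all genes, so the count called lower was near the background. All 42 values were below 0 after percentile scaling, a direction that turned for the median of all names under the settings given above. The name with the largest fall, Rps27a-ps1, was dim, at 5.37 and 5.18 without Epo and 3.34 and 4.28 with it. It was well above background on 1 of the 2 Epo arrays. Rps27a-ps1 thus passed the filter only through the group without Epo, where it was higher, which favours a fall. Its difference was -1.47 ± 0.34 (SE), with a limma adjusted p of 0.0389. The call held in 6 of 14 alternatives. The other names called lower were Rpl17-ps5, Rpl28-ps3, Rpl29-ps5, Rpl10a-ps1 and Rpl19-ps6, chosen after their values were seen.

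Pseudogene names cannot be read apart from their parent genes where probes share sequence. A subunit gene's name can carry the same doubt. The probe that represents Rpl31 was placed at chr12:93129426-93129485 in mm9, near an Rpl31-ps1 probe at chr12:93129330-93129389. The other Rpl31 probes were placed on chromosome 1. For 9 of the 42 names a probe overlapped a probe of the parent by at least 30 bases at 90% identity or more, without gaps. Rpl10a-ps1 and Rpl10a shared 54 of 54 bases, and their probes gave -0.46 and -0.34. In mm9 these probes were placed over each other, at chr17:28467923-28467982 and chr17:28467917-28467976. The value of Rpl10a-ps1 is thus a 2nd reading at the place of Rpl10a, not that of a separate copy. Rpl14-ps1 and Rpl14 shared 50 of 51 bases, with -0.57 and -0.65, and Rps18-ps1 and Rps18 shared 45 of 48, with -0.45 and -0.24. Windows of 30 bases from both of the last pairs are shown to let the eye judge how little separates them, with the mismatched bases in capitals.
Rpl14-ps1, probe at chr7:52580970-52581029 in mm9: acacagaataataaaAgttctttttgacgg
Rpl14, probe at chr9:120483487-120483546 in mm9: acacagaataataaaGgttctttttgacgg
Rps18-ps1, probe at chr4:71031837-71031896 in mm9: AgagcccatagagggctgcgccacttttgG
Rps18, probe at chr17:34089041-34089202 in mm9: CgagcccatagagggctgcgccacttttgT
Which copy's transcript the other overlapping probes read was not tested.

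Some ribosomal proteins have names that the rule misses. Of 4 such genes measured, 3 were called lower, Rpsa, Fau and Gnb2l1 (RACK1), against 14.2% of all genes, and the median of the 4 was -0.50. The 3 called had mean signals above 18, where other genes had a median of -0.49. Fau, which is made as a fusion with a ubiquitin-like protein, read 18.72 and 18.58 without Epo and 18.17 and 18.06 with it, a difference of -0.54 ± 0.12 (SE) with a limma adjusted p of 0.0395. With cyclic loess 0 of the 4 were called, without scaling the median was 0.25, and without any 1 of the 4 arrays 0 of the 3 calls remained.

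Other messages known for a TOP tract were taken as a list. Of 17, 1 was called lower and 0 higher, against 14.2% and 13.1% of all genes, and the median was -0.16. The one called was Tpt1, the translationally controlled tumour protein, which read 18.43 and 18.32 without Epo and 17.95 and 17.85 with it. Eef1a1, the elongation factor that carries aminoacyl-tRNA, differed by -0.47 ± 0.12 (SE) with a limma adjusted p of 0.0522. Eef1d and Eef1g, subunits of its exchange factor, had changes of 0.13 and 0.088 that did not pass. With cyclic loess the median was -0.035 and 0 of 17 were called, and the call of Tpt1 was lost without any 1 of the arrays. Without scaling the median was 0.59, with 3 called higher and 0 lower, and Tpt1 had a change of 0.27.

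Among regulators of these messages and the S6 kinases, 2 of 16 measured genes were called higher and 2 lower, near the background of 13.1% and 14.2% of all genes, and Rps6ka2 was not measured. Larp1, which binds the TOP tract, read 13.50 and 13.00 without Epo and 14.70 and 14.37 with it. It rose by 1.28 ± 0.23 (SE), with a limma adjusted p of 0.0214, and by 1.30 with cyclic loess. Rps6kb1, the S6 kinase that phosphorylates Rps6, read 12.09 and 12.06 without Epo and 12.75 and 12.70 with it, a rise of 0.65 ± 0.11 (SE) with a limma adjusted p of 0.0194. The genes called lower were Rps6ka1 and Rps6ka5, which encode RSK and MSK kinases, with changes of -0.48 and -0.61 and limma adjusted p of 0.0398 and 0.0297. Mtor itself differed by 0.27 ± 0.11 (SE), with a limma adjusted p of 0.143. All 4 calls were also made with cyclic loess, while without scaling 10 of the 16 were called higher and 0 lower. With 1 array left out, the call of Larp1 was lost without Epo replicate 1 (limma adjusted p 0.0550), and those of Rps6kb1, Rps6ka1 and Rps6ka5 without any 1 of the 4.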

How the data were processed

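RNA was labelled with Cy3 and hybridised to 4 one-colour Agilent mouse arrays. The deposited files hold Feature Extraction 10.1.1.1 output: per the file headers a processed intensity for each spot, corrected for background by the scanner software, its raw mean and background intensity, and other values such as flags for detection and outliers. The submitters' processing notes name limma. Log2 processed intensity was scaled to each array's 75th percentile over 59305 non-control spots and the mean percentile added back. Outlier spots were left out (9 probes lost), spots of a probe were averaged, and each name was represented by its brightest kept probe. limma 3.58.1 in R 4.3.3 compared the groups (2 residual and 4.57 total degrees of freedom), with the threshold at 0.05 after Benjamini-Hochberg adjustment, and was tested on simulated data.

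The design text speaks of 2 independent experiments, read here as the replicate numbers. Same-numbered samples deviated together with a correlation of 0.386 across genes, and the fit with the replicate block had a median SE of 0.079 against 0.15. The precision is limited by 2 arrays a group.

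Named genes were the stalk genes, Rps6, Rpl5, Rpl11, Rps19, Rpl13a, Rpl32, the paralogues with their partners, Rps19bp1, the 5 largest rises and falls past the threshold and genes with opposite called probes. Some results, 1 gene among those called lower included, are not reported here. The members, the lists and this rule were chosen with earlier results of these data known. Alternatives covered scaling, background, the dim filter, outlier spots, probe averaging, the block and each array left out. Probe positions are on mm9, from the files. All 75 subunit genes matched a RefSeq accession. Protein sequences were not used here.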

Additional observations from a re-analysis of the deposited data

How the results depend on the processing

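Among 123 ribosomal names, 18 lower and 2 higher calls, and a median of -0.33 (all genes -0.062), were compared over 14 alternatives. No scaling gave 0 lower and 4 higher with medians of 0.42 and 0.68 (all genes), and calls of 8244 higher and 365 lower over all genes. Spike-in scaling gave 0 lower and 96 higher, medians of 0.69 and 0.95, and 13386 and 250 over all genes. Quantile normalization gave 0 lower, medians of 0.0042 and -0.044, and a gap to equally bright genes of 0.032. Cyclic loess gave 0 lower and medians of -0.069 and -0.035. The detected-probe percentile gave 56 lower and medians of -0.45 and -0.19, normexp 11 lower and medians of -0.21 and -0.074, and averaged probes medians of -0.29 and -0.057. Without the dim filter limma called 0 names and 0 genes either way, with 16 names at an unadjusted p under 0.05 and an all-gene median of -0.45. The count of all genes at that p was not taken. Every probe on its own gave 4 higher. The cause of these shifts was not tested.

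The replicate block gave 49 lower names, 3499 higher and 4072 lower genes, and 4711 higher and 4876 lower probes, and pushed 6 of 32 named genes over the threshold and 1, Rps27a-ps1, below it. Leaving out 1 array gave 1 to 5 lower names, 1 to 2 higher names, 1102 to 2019 higher and 1178 to 1945 lower genes, all-gene medians of -0.064 to -0.056 and name medians of -0.33 to -0.31.

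Without scaling the signs of 11 named called genes turned: Rps14 0.071, Rpl14 0.094, Rps20 0.16, Rpl9 0.17, Rpl35 0.18, Rpl41 0.24, Rpl37a 0.28, Rps12 0.29, Rps16 0.29, Rpl38 0.30 and Rps9 0.30. With spike-in scaling, in that order, they were 0.34, 0.36, 0.42, 0.44, 0.44, 0.51, 0.55, 0.55, 0.56, 0.56 and 0.57. With quantile normalization 7 turned: Rpl35 0.0024, Rpl41 0.044, Rpl37a 0.047, Rps12 0.042, Rps16 0.062, Rpl38 0.040 and Rps9 0.040. Of the changes called in either direction, those of Rpl7l1, Rps19bp1 and Rps27a-ps1 turned under none of the 14. For Rps27a-ps1 this carries no weight, since it passed the filter only through the group without Epo, where it was higher.

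With 2 arrays a group, 0.43 was the smallest change called, which is larger than the median change of the ribosomal names.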

Other observations

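A few dim probes under these names gave values apart from the rest of their gene. The name Rpl31-ps1 stands on 2 probes that the files place on different chromosomes. The probe on chromosome 12, which represents the name above, differed by -0.28. The probe on chromosome 5 read 8.71 and 8.97 without Epo and 11.12 and 11.35 with it, a rise of 2.40 ± 0.16 (SE) with a limma adjusted p over all probes of 0.00523, and was the largest rise among the 210 probes. Rps15a had a probe at transcript base 4642 that differed by 1.12 ± 0.37 (SE), with a limma adjusted p of 0.0920. That probe was well above background on 2 of the 4 arrays, so it passed the filter through 1 group alone, which favours a difference. The other Rps15a probes differed by -0.35 and -0.41. Rps27a had a probe at transcript base 42 that differed by 0.30 ± 0.16 (SE), with a limma adjusted p of 0.228, where its other probes gave -0.39 and -0.63. These 3 names were chosen after their values were seen.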
